A study of Mus musculus with 12 samples.

Results

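The Id and Hmga genes of the mouse cortex were described in 12 C57BL/6 mice, of which 7 were controls and 5 had drunk ethanol. The members are Id1, Id2, Id3, Id4, Hmga1, Hmga1b and Hmga2, the 7 rows with these symbols among 33024 gene symbols in the deposited count table. Id1 and Hmga1 were picked from measured values of this same comparison, because their counts and the study's own results differ, so their fold changes are given as a description with no test. The other 5 members were chosen by family name. In the drinking paradigm (two-bottle choice, drinking in the dark), wild-type mice of 30 days of age had a bottle of water and a bottle of 20% (v/v) ethanol in 35 nightly sessions of 12 h, while Control mice had water in both bottles and carry the label Vehicle. In the arm that was sequenced, 14 days of abstinence and then a set of behavioural tests came before the tissue was taken. The sex of the mice is not given in the sources used here. Total RNA of the cortex was sequenced, with 1 library per mouse and total counts of 31768079 to 42183031.

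Id proteins (inhibitors of DNA binding) carry a helix-loop-helix without the basic stretch that binds DNA. They pair with E proteins, the broadly expressed basic helix-loop-helix (bHLH) factors, and so keep these from working with tissue-specific bHLH factors such as the proneural ones. Id genes are classic targets of bone morphogenetic protein (BMP) signalling through SMAD proteins, and in the brain they are best known for holding back neuronal differentiation and for their expression in astrocytes and endothelium. Hmga proteins are small chromatin proteins that bind the minor groove of AT-rich DNA with short motifs called AT-hooks. They are abundant in embryonic and dividing cells, and Hmga2 is a known target of the let-7 microRNAs, which Lin28 proteins hold down. In bulk tissue, fewer cells of a type and less RNA per cell cannot be told apart.

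Hmga1b is shown beside Hmga1 first, because their likeness bears on every count of both. Hmga1 lies on chromosome 17 (GRCm39, 27775449 to 27782648, plus strand) and its coding sequence is spread over 4 exons. Hmga1b lies on chromosome 11 (120653620 to 120655245, plus strand) and its coding sequence of 321 bases sits in 1 exon. That coding sequence was 100% identical to a coding model of Hmga1 of the same length. The first 90 coding bases of both genes are the same letters, at chr17:27778543-27778632 for Hmga1 and at chr11:120653715-120653804 for Hmga1b, both on the plus strand of GRCm39. Capitals mark the codons for the core of the first AT-hook, of which a search in the reading frame found 3 in each gene.
Hmga1 and Hmga1b: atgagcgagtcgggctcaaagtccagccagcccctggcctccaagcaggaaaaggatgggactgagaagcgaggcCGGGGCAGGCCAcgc

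Along the whole Hmga1b transcript, 1203 of 1527 windows of 100 bases (78.8%) were found unchanged in Hmga1, and 98.4% were found there with at most 2 mismatches. Reads from one gene can therefore match the other, and how reads with several matches were counted is not given in the sources used here. The counts of both genes are uncertain for this reason.

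The stretches just before the start sites of Id2, Id3 and Id4 are shown because the 3 tested Id genes differed in their values, as described further on. Each line gives the 250 bases before the start site, 5′ to 3′ on the strand of the gene, credited to RefSeq (GRCm38.p6), a different build from that of the counts. The stretch of Id2 is chr12:25096093-25096342 (minus strand), that of Id3 chr4:136143572-136143821 (plus strand) and that of Id4 chr13:48260866-48261115 (plus strand). Capitals mark matches on either strand to CANNTG (an E-box, the letters that bHLH dimers bind), GGCGCC (an element known from BMP-responsive Id promoters) and CCAAT.
Id2: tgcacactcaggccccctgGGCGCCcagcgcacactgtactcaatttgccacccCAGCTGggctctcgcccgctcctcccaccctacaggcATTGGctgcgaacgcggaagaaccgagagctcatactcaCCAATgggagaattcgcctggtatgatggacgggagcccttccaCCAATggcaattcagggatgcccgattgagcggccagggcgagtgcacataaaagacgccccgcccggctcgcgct
Id3: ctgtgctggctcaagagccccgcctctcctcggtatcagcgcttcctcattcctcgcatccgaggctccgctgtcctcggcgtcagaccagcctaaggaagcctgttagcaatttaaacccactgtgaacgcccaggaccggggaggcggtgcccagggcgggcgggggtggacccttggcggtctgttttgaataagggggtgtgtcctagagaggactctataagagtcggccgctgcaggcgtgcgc
Id4: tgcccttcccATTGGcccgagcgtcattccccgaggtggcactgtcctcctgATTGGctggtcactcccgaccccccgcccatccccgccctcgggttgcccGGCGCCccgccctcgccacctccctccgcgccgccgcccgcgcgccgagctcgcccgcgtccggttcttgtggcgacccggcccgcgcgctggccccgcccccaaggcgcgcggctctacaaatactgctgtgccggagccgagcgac

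The Id2 stretch held 1 E-box, 1 GGCGCC and 3 CCAAT matches, the Id4 stretch held 1 GGCGCC and 2 CCAAT matches, and none of the 3 motifs was found in the Id3 stretch. Of 32851 promoters of the same length, 66.2% held CANNTG, 9.59% held GGCGCC and 33.8% held CCAAT. Of the 7 members, 6 had an entry in the RefSeq table, and Id1 had none. These matches describe the letters alone.

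In the control cortex, Id2 had the highest level of the 7 genes and Hmga2 the lowest. Levels of different genes were compared as RPKM, read counts scaled for exon length and sequencing depth, since counts alone favour long genes. The control mean was 30.1 RPKM for Id2, 19.5 RPKM for Id4, 10.2 RPKM for Id3, 9.61 RPKM for Hmga1 and 6.02 RPKM for Id1, with 0.170 RPKM for Hmga1b. Id2 was above Id4, Id4 above Id3, Hmga1 above Id1, Id1 above Hmga1b and Hmga1b above Hmga2 in 7 of 7 control mice (exact two-sided sign-flip test, adjusted p = 0.0188 over 6 neighbouring pairs, from a raw p of 0.0156, the smallest that 7 mice allow). The order was taken from the means of these same 7 mice and only neighbours in it were tested, so these p-values are not independent of the ranking. Id3 and Hmga1 did not differ beyond their spread, with a difference of 0.09 ± 0.19 on the log2 RPKM scale (SD, n = 7, exact p = 0.25) and Id3 higher in 5 of 7 mice. With the longest transcript in place of all exons as the length, Id3 was above Hmga1 by 0.53 on that scale (exact adjusted p = 0.0156), so the place of these neighbours depends on the gene model.

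Id4 fell in the EtOH mice and was the only one of the 3 tested Id genes that was called. Values are given from here on as CPM, counts scaled for library size and composition. The control mice had 92.4, 104.6, 75.5, 85.0, 81.0, 107.9 and 80.1 CPM of Id4, and the EtOH mice had 67.3, 55.5, 66.3, 60.1 and 58.6 CPM. Every EtOH mouse was below every control mouse, and the groups did not overlap. The mean was 89.5 ± 12.6 CPM in controls (SD, n = 7) and 61.6 ± 5.08 CPM in EtOH mice (SD, n = 5). The log2 fold change was -0.54 (SE 0.09), with an adjusted p of 0.000284 over 16059 genes (quasi-likelihood test of edgeR, Benjamini-Hochberg adjustment).

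A gene was called when its adjusted p was under 0.05 and its log2 fold change was above 0.5 in size. By this rule 4.20% of all tested genes were called higher and 4.09% lower, in 4.96% every EtOH mouse was below every control mouse, and in 4.84% every EtOH mouse was above. Of Id2, Id3 and Id4, only Id4 was called. Hmga1b is set apart from this count, because it passed the expression filter through the EtOH mice. Id4 lay close to the minimum: without Control replicate 2 or without Control replicate 6, the control mice with the most Id4, its log2 fold change was -0.50 and -0.49, short of 0.5, with adjusted p of 0.000512 and 0.000446 by the same test.

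**Figure D1:**
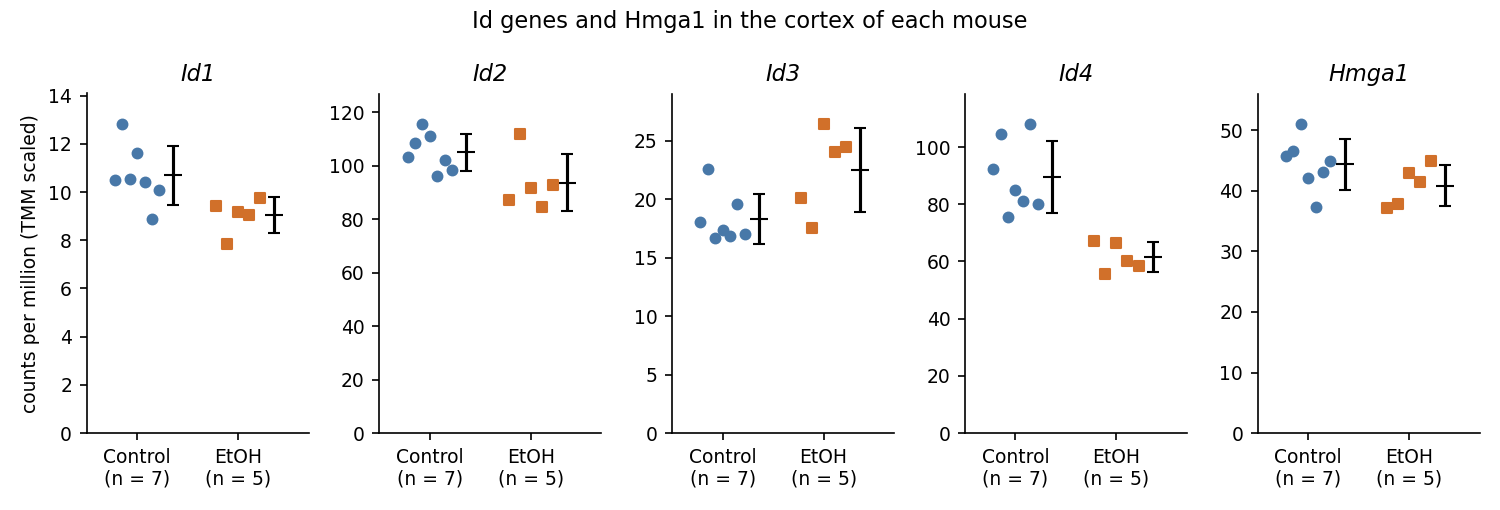
CPM of Id1, Id2, Id3, Id4 and Hmga1 in each mouse, with Control mice as circles (n = 7) and EtOH mice as squares (n = 5); the bar beside each group is its mean with 1 SD, and each panel has its own axis from 0. The 5 EtOH mice sit at 55.5 to 67.3 CPM of Id4, under all control mice at 75.5 to 107.9 CPM, while in the other panels the groups overlap.

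Id3 had a higher mean in the EtOH mice. The control mice had 18.1, 22.6, 16.7, 17.4, 16.9, 19.6 and 17.1 CPM, and the EtOH mice had 20.1, 17.6, 26.4, 24.1 and 24.4 CPM. EtOH mice 3, 4 and 5 were above all controls, and EtOH mice 1 and 2 lay within the control range. The mean was 18.4 ± 2.14 CPM in controls and 22.5 ± 3.59 CPM in EtOH mice, with a log2 fold change of 0.30 (SE 0.10). Its adjusted p was 0.0407 in the edgeR test, but the change was under the minimum of 0.5, so Id3 was not called. The adjusted p stayed under 0.05 in 4 of 12 edgeR fits that each left out 1 mouse, those without Control replicate 2 or 6 or EtOH replicate 1 or 2, and ranged from 0.00928 to 0.127.

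Id2 had a lower mean in the EtOH mice but did not pass the test. The control mice had 103.4, 108.4, 115.5, 111.3, 96.1, 102.0 and 98.2 CPM, and the EtOH mice had 87.2, 111.9, 91.6, 84.7 and 92.9 CPM. EtOH mouse 2 lay among the controls, and the other 4 lay below all of them. The log2 fold change was -0.17 (SE 0.07), with an adjusted p of 0.0904 in the edgeR test. Without EtOH replicate 2 it was -0.24 with an adjusted p of 0.00804, and without Control replicate 5 it was -0.19 with an adjusted p of 0.0459, in both fits short of the minimum.

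Id1 had 10.5, 12.8, 10.5, 11.6, 10.4, 8.86 and 10.1 CPM in the control mice and 9.41, 7.84, 9.18, 9.04 and 9.76 CPM in the EtOH mice. The ranges overlapped, with EtOH mouse 2 below all controls and the other 4 EtOH mice above the lowest control. The mean was 10.7 ± 1.24 CPM in controls and 9.05 ± 0.727 CPM in EtOH mice, a log2 fold change of -0.24 (SE 0.09).

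Whether the Id genes differed in their change between the groups was tested on the log2 ratio of each pair within a mouse. The groups also differed in markers of other brain regions, so the test compares the samples and names no agent. The log2 ratio of Id3 to Id4 was -2.28 ± 0.10 in controls (SD, n = 7) and -1.46 ± 0.22 in EtOH mice (SD, n = 5), and 5 of 5 EtOH mice were above all controls. The difference of 0.82 had an exact two-sided permutation p of 0.00126, the smallest that 7 against 5 mice allow, and an adjusted p of 0.00379 over 3 pairs. The ratio of Id2 to Id3 was lower in EtOH mice by -0.46 (exact p = 0.0227, adjusted p = 0.0253), with 4 of 5 EtOH mice below all controls. The ratio of Id2 to Id4 was higher by 0.36 (exact p = 0.0253, adjusted p = 0.0253), with 2 of 5 EtOH mice above all controls. Without EtOH replicate 2 the last difference was 0.26 (exact adjusted p = 0.0697), so that pair rests on this mouse.

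**Figure D2:**
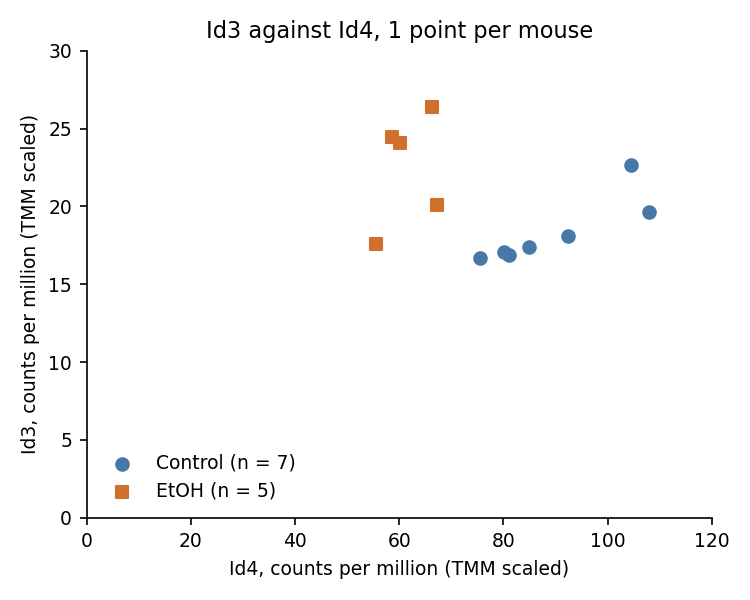
Id3 against Id4 in CPM, 1 point per mouse, with Control mice as circles (n = 7) and EtOH mice as squares (n = 5). The controls lie along a rising line from 75.5 CPM of Id4 and 16.7 CPM of Id3, and the 5 EtOH mice lie to the left of it, at 55.5 to 67.3 CPM of Id4.

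Among the 7 control mice, those with more Id4 tended to have more Id3. Pearson's r of log2 CPM was 0.88 (exact permutation p = 0.00556, adjusted p = 0.0556 over 10 pairs of Id1 to Id4 and Hmga1), and Spearman's rho was 0.93 (exact permutation p = 0.00675, adjusted p = 0.0675). After leaving out the 2 mice farthest from the median, r was 0.98. It missed the threshold after adjustment, and so did the other 9 pairs, whose adjusted p for r was 0.431 or higher in the same exact test. Id2 and Hmga1 had an r of 0.68 that became -0.23 without 2 mice. These pairs were looked at after the counts had been seen.

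The makeup of the Id pool can be read from RPKM. Summed over Id1 to Id4, the lowest, median and highest control mouse had 60.5, 65.8 and 73.7 RPKM, and the EtOH mice had 55.9, 58.4 and 60.6 RPKM. Id4 made up 25.3%, 29.1% and 34.2% of this sum in controls (lowest, median, highest) and 20.7%, 23.4% and 26.0% in EtOH mice. Id3 made up 14.4%, 15.6% and 17.2% in controls and 16.8%, 23.3% and 24.3% in EtOH mice. Id2 was the largest part in every group, with medians of 45.6% and 44.5%.

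Hmga1, the member with the most counts among the Hmga genes, overlapped between the groups. It had 45.6, 46.6, 50.9, 42.0, 37.4, 43.1 and 44.9 CPM in the control mice and 37.1, 37.8, 42.8, 41.5 and 45.0 CPM in the EtOH mice. EtOH mouse 1 was below all controls by a small margin, and the other 4 lay within their range. The mean was 44.4 ± 4.20 CPM in controls and 40.8 ± 3.34 CPM in EtOH mice, a log2 fold change of -0.12 (SE 0.07).

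Hmga1b, the copy in 1 coding exon, had very low counts, with more of them in the EtOH mice. The control mice had counts of 12, 12, 6, 8, 10, 8 and 8, and the EtOH mice had counts of 16, 30, 20, 20 and 36. EtOH mice 2 to 5 were above all controls in CPM, and EtOH mouse 1 lay within the control range. The mean was 0.277 ± 0.0687 CPM in controls and 0.720 ± 0.290 CPM in EtOH mice, with a log2 fold change of 1.36 (SE 0.31). The expression filter asked for 0.310 CPM in at least 5 mice, and Hmga1b met it with 5 EtOH mice and only 2 control mice, so its place among the tested genes depended on the EtOH mice and this fold change is given as a description. With every gene of at least 1 count in any mouse kept, a filter that its control mice pass by themselves, the log2 fold change was 1.36 (SE 0.33, edgeR adjusted p = 0.00562). With halved counts, or with at least 10 counts asked of every mouse, Hmga1b was filtered out and had no value. In the same mice Hmga1 had 37.1 to 45.0 CPM, and the sum of both genes had a log2 fold change of -0.10 (SE 0.07).

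All 12 counts of Hmga1b and all 12 of Hmga2 were even numbers. Over the whole table the share of even numbers was 76.7% for counts of 1 to 4, 67.4% for counts of 5 to 19 and 50.8% for counts of 1000 to 9999. Of the counts of Id1, 10 of 12 were even, against 6 of 12 each for Id4 and Hmga1. The sources used here do not say what 1 count stands for, so low counts may rest on fewer independent fragments than their number.

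Hmga2, the embryonic member, was at the limit of what these libraries can show. Its counts were 2, 0, 2, 2, 2, 6 and 6 in the control mice and 10, 8, 4, 2 and 8 in the EtOH mice. EtOH mice 1, 2 and 5 were above all controls in CPM, and the other 2 were not. It did not pass the expression filter and was not tested. A count of 3, the limit that a count of 0 allows, equals 0.0695 to 0.0962 CPM in these libraries, and the group means were 0.0887 ± 0.0739 and 0.181 ± 0.0857 CPM. This limit covers counting error only.

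**Figure D3:**
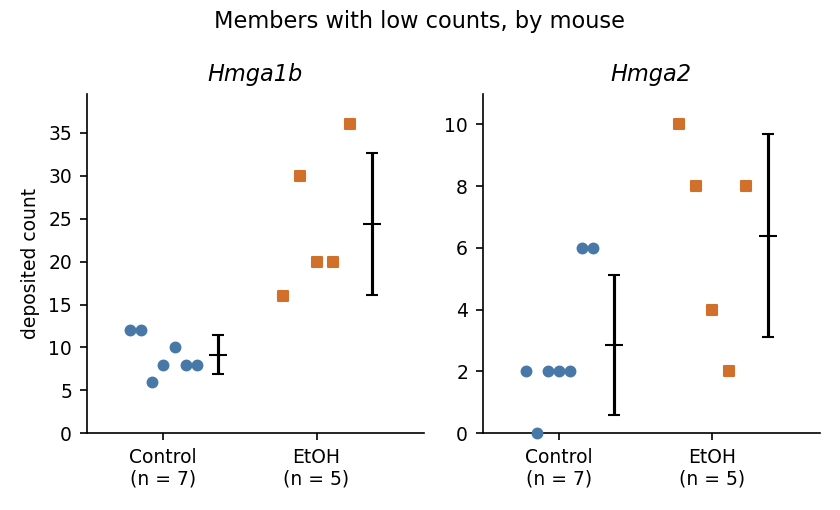
Deposited counts of Hmga1b and Hmga2 in each mouse, with Control mice as circles (n = 7) and EtOH mice as squares (n = 5); the bar beside each group is its mean with 1 SD. Hmga1b lies at 6 to 12 counts in controls and 16 to 36 in EtOH mice, and Hmga2 lies at 0 to 10 counts in all mice.

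The pathway genes around the Id and Hmga genes were counted in lists that were written with earlier results of these data known. Over all tested genes the median log2 fold change was near 0, and the shares called were those given above. At an adjusted p under 0.05 with any fold change, 23.7% of all tested genes passed in edgeR, 1947 higher and 1863 lower. The share at an unadjusted p under 0.05 is not given here, so counts at that threshold have no background beside them. Among the 3 E proteins, which Id proteins bind, 0 were called in edgeR and in DESeq2, and 1 was higher at an unadjusted p under 0.05. Tcf4 had a mean of 318 ± 23.3 CPM in controls and 436 ± 24.8 CPM in EtOH mice, and 5 of 5 EtOH mice were above all controls. Its log2 fold change was 0.46 (SE 0.06) with an adjusted p of 2.07e-05 in the edgeR test, just short of the minimum of 0.5. Tcf3 had a log2 fold change of 0.09 (adjusted p = 0.360, edgeR) and Tcf12 one of 0.06 (adjusted p = 0.567, edgeR).

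Of 15 tissue-specific bHLH factors 14 were tested, and 4 were called higher and 0 lower in edgeR and in DESeq2, with a median log2 fold change of 0.42. At an unadjusted p under 0.05 in edgeR, 7 were higher and 2 lower, counts without a share of all tested genes beside them. Another 2 were past the adjusted p in the higher and 2 in the lower direction without reaching the fold minimum. Bhlhe22, a neuronal bHLH repressor, rose from 34.3 ± 3.23 to 66.7 ± 6.40 CPM, a log2 fold change of 0.96 (SE 0.07, edgeR adjusted p = 9.59e-08). Neurod1, a neuronal differentiation factor of granule neurons, rose from 12.3 ± 1.09 to 22.7 ± 2.45 CPM. In both genes every EtOH mouse was above every control mouse. Both stayed called in 12 of 12 fits without 1 mouse. Nhlh2 had a log2 fold change of 1.31 (SE 0.31) at means of 0.264 and 0.656 CPM, given as a description and set apart from the 4 calls, since like Hmga1b it passed the expression filter with 5 EtOH and only 2 control mice. In the same EtOH mice 6 of 10 hippocampus markers were called higher and 10 of 10 striatum markers lower, and their part in the values of this list was not tested. The 6 Hes and Hey genes, which encode bHLH factors, had 0 calls in edgeR and in DESeq2. At an adjusted p under 0.05 alone in edgeR, 1 was higher and 1 lower. At an unadjusted p under 0.05 in edgeR, 2 were higher and 1 lower.

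BMP ligands and their antagonists had 4 calls higher and 1 lower of 18 tested, with a median log2 fold change of 0.08. At an adjusted p under 0.05 with any fold change, 6 were higher and 2 lower, as were 1947 and 1863 of all 16059 tested genes. Chrd (chordin, a secreted BMP antagonist) rose from 39.4 ± 5.89 to 77.7 ± 8.04 CPM, with all EtOH mice above all controls. Bmp5, a ligand, rose from 0.473 ± 0.206 to 1.11 ± 0.360 CPM, again without overlap. Grem1, another secreted antagonist, had a log2 fold change of 0.77 (SE 0.23) and was no longer called without EtOH replicate 2 (edgeR adjusted p = 0.0715) or EtOH replicate 3 (adjusted p = 0.0590). Sostdc1, an antagonist that is also a marker of the choroid plexus, had 0.0977 to 0.938 CPM in controls and 0.730 to 8.35 CPM in EtOH mice, a log2 fold change of 2.53 (SE 0.52). Fst (follistatin, an activin and BMP antagonist) was called lower at -0.53 (SE 0.18), a call that stayed in 3 of 12 fits without 1 mouse.

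Among BMP receptors and SMADs, 2 genes were called higher and 2 lower of 18 tested, with a median log2 fold change of -0.03. At an adjusted p under 0.05 with any fold change, 2 were higher and 5 lower, against 1947 and 1863 of all 16059 tested genes. The 2 lower calls include Hjv, whose place among the tested genes depended on the control mice. The type II receptor Acvr2a rose from 42.7 ± 4.28 to 66.8 ± 10.2 CPM, a log2 fold change of 0.65 (SE 0.09), and Acvr2b had 0.55 (SE 0.14). Without Control replicate 2 or 3 Acvr2b fell under the minimum, at 0.49 and 0.48. Acvrl1, a type I receptor of endothelium, fell from 21.0 ± 1.85 to 13.6 ± 1.60 CPM, a log2 fold change of -0.63 (SE 0.08). Hjv (hemojuvelin, a BMP co-receptor) had a log2 fold change of -0.98 (SE 0.30) at a control mean of 1.23 CPM, given as a description, since 7 control mice but only 4 EtOH mice were over the filter level that 5 had to reach.

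Of 7 genes that Id proteins are known to repress 6 were tested, and 1 was called in each direction. Cdkn1a, which encodes the cell cycle inhibitor p21, fell from 25.7 ± 5.59 to 12.8 ± 4.38 CPM (edgeR adjusted p = 0.000974), and 4 of 5 EtOH mice were below all controls. Thbs1 (thrombospondin 1) had a log2 fold change of 0.90 (SE 0.29), called in 5 of 12 fits without 1 mouse. In the Lin28 and let-7 axis, 7 of 9 genes were tested, with 1 called higher and 2 lower in edgeR. At an adjusted p under 0.05 with any fold change, 2 were higher and 2 lower, as were 1947 and 1863 of all 16059 tested genes. The lower ones include Igf2bp2, whose place among the tested genes depended on the control mice. Lin28b, the inhibitor of let-7 processing, fell from 9.46 ± 0.912 to 5.65 ± 0.357 CPM, with all EtOH mice below all controls and a log2 fold change of -0.74 (SE 0.09). Igf2bp2, an RNA-binding protein, had -1.03 (SE 0.36), given as a description as for Hjv, with 7 control and 3 EtOH mice over the filter level. Trim71, a let-7 target, had 0.67 (SE 0.21), called in 9 of 12 fits without 1 mouse.

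A list of heterochromatin genes was set beside the Hmga genes, with histone chaperones, heterochromatin proteins, linker histones, Ep400, Rb1, Trp53 and Lmnb1 among them. Its 17 tested genes had 0 calls in edgeR and 2 calls lower in DESeq2. In edgeR 1 was higher at an adjusted p under 0.05 alone, and 3 were higher and 2 lower at an unadjusted p under 0.05. The 11 other high mobility group genes had 0 calls in edgeR and in DESeq2. In edgeR 3 were lower at an adjusted p under 0.05 alone, as were 1863 of all 16059 tested genes. At an unadjusted p under 0.05 in edgeR, 1 was higher and 4 lower.

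**Figure D4:**
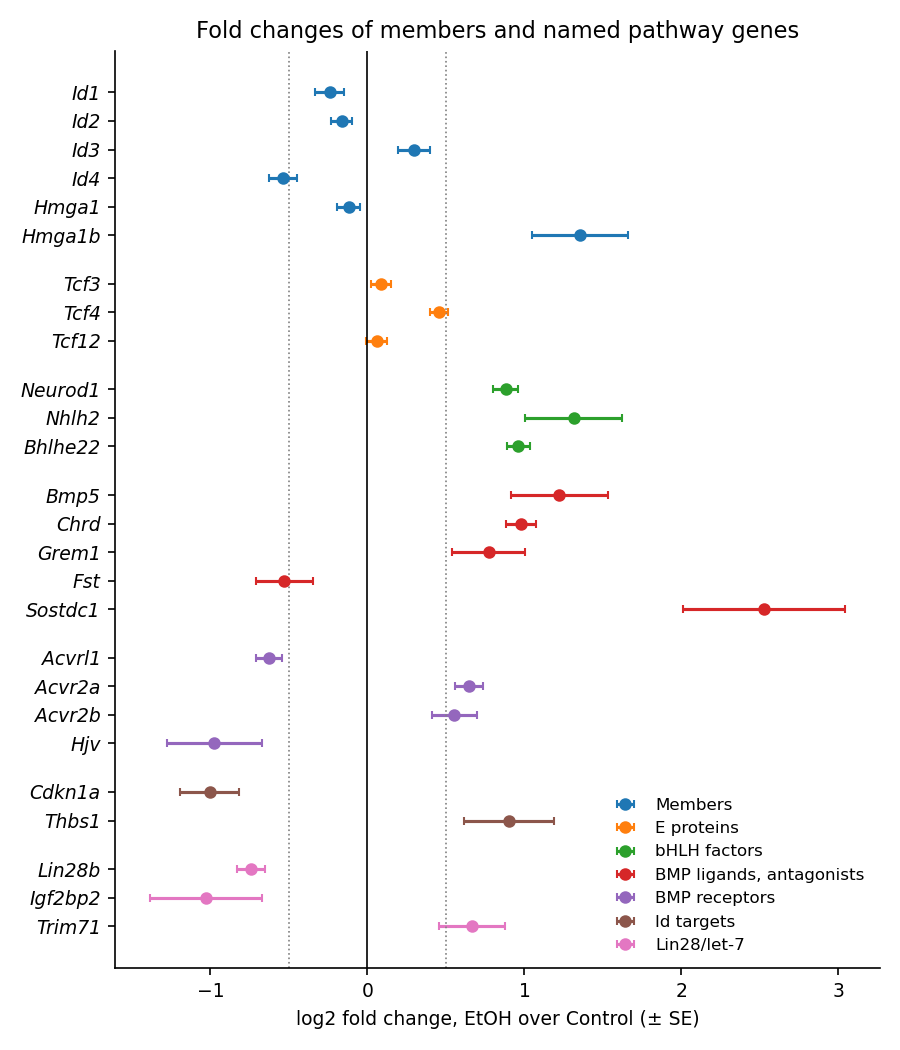
Log2 fold change of EtOH over Control mice with its SE for the 6 members with a fit, the 3 E proteins and called genes of the other lists that are named in the text; dotted lines mark the minimum of 0.5 in either direction. Id4 lies just beyond the lower line at -0.54, Tcf4 just inside the upper line at 0.46, and the bHLH factors shown lie between 0.88 and 1.31.

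Markers of other brain regions moved with the groups, and their part in the results for the members and for the pathway lists was not tested. All 10 of 10 striatum markers were called lower, and their summed level was 989 to 2370 CPM in controls and 234 to 302 CPM in EtOH mice. Control replicates 2 and 6, the control mice with the most Id4, also had the highest striatum sums, 2370 and 1968 CPM. Control replicate 3, with the least Id4 of the controls, had 1562 CPM, while the lowest sum, 989 CPM, was that of Control replicate 7. The link of Id4 with this sum was not tested. Of 10 hippocampus markers 6 were called higher, with summed levels of 437 to 539 CPM in controls and 629 to 743 CPM in EtOH mice. Of 7 choroid plexus markers 6 were tested and 5 were called higher, with sums of 8.02 to 22.2 CPM in controls and 13.5 to 1009 CPM in EtOH mice, the highest in EtOH mouse 3. The sums of EtOH mice 1 to 5 were 126, 23.7, 1009, 282 and 13.5 CPM. The log2 fold change of Id3 was 0.23 without EtOH replicate 3 (edgeR adjusted p = 0.127), 0.27 without EtOH replicate 4 (adjusted p = 0.0951) and 0.26 without EtOH replicate 5 (adjusted p = 0.103). That of Id4 was -0.57 without EtOH replicate 3 (edgeR adjusted p = 0.000571).

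Markers of cell types were counted in the same way. Of all 16059 tested genes, 1947 were higher and 1863 lower at an adjusted p under 0.05 with any fold change. Astrocyte markers summed to 3687 to 4200 CPM in controls and 3984 to 4526 CPM in EtOH mice, with 1 of 10 called higher and 4 of 10 higher at an adjusted p under 0.05. Endothelial markers summed to 248 to 280 CPM and 239 to 265 CPM, with 2 of 10 called lower. Oligodendrocyte markers summed to 4343 to 5779 CPM in controls and 2912 to 5217 CPM in EtOH mice, with 2 of 8 called lower and 7 of 8 lower at an adjusted p under 0.05. The highest EtOH sum was that of EtOH mouse 2, the mouse with the most Id2 in its group and without which the Id2 to Id4 difference missed the threshold, and the other 4 EtOH mice had 2912 to 3628 CPM. Microglia markers summed to 322 to 358 CPM and 283 to 308 CPM, of which 5 of 8 were lower at an adjusted p under 0.05 without reaching the fold minimum. Oligodendrocyte precursor markers summed to 128 to 168 CPM and 146 to 177 CPM, with 2 of 5 higher at an adjusted p under 0.05 without reaching the fold minimum. Of 9 markers of neural stem cells and neuroblasts 8 were tested, with 1 called higher and 2 lower and sums of 92.5 to 111 CPM and 108 to 120 CPM. Interneuron markers had 1 call higher and 2 lower of 8, with sums of 1018 to 1278 CPM and 887 to 955 CPM. Gad2 and Npy were called lower and Reln higher, while Pvalb, Sst, Vip and Lhx6 had an adjusted p of 0.0943 or higher in edgeR. The 10 markers of cortical layer neurons, which define the tissue, were all detected, with sums of 880 to 1012 CPM and 833 to 1026 CPM. Of these, 1 was called higher and 1 lower, and 3 were higher and 3 lower at an adjusted p under 0.05. The part of these cell types in the results for members and lists was likewise not tested.

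The genes whose pattern was most like each member were taken by Pearson's r over the 12 mice after group means had been removed, among 14173 genes with a mean of at least 1 CPM. They share libraries and depth with the member, and r is given as a description. For Id4 they were Htr5b (0.91), Snord104 (0.89) and Il13ra1 (0.89), and for Id3 they were Hdc (0.89), Tagln2 (0.88) and Ikzf2 (0.88). For Id2 they were Mtpap (0.95), Neu2 (0.94) and Slc26a10 (0.94), and for Id1 Rab37 (0.93), Clic1 (0.93) and Nr1h3 (0.92). For Hmga1 they included Nckipsd (0.93) and Slc3a2 (0.93), and for Hmga1b they were Stat6 (0.86), Arf6 (0.85) and 1300002E11Rik (0.84). By Spearman's rho none of the 3 genes of Id2 stayed, and 1 of the 3 stayed for each of the other 5 members.

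The remaining positions, in GRCm39, are as follows. Id1 lies on chromosome 2 (152566218 to 152579544, plus strand), Id2 on chromosome 12 (25143798 to 25147282, minus strand), Id3 on chromosome 4 (135870808 to 135873066, plus strand) and Id4 on chromosome 13 (48414558 to 48419502, plus strand). Hmga2 lies on chromosome 10 (120197173 to 120313095, minus strand). All 7 are annotated as protein-coding. Exons of every member except Hmga1b overlap exons of a gene on the opposite strand, for Hmga1 also those of the protein-coding Smim29, and whether the counting used strand is not given in the sources used here.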

How the data were processed

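Cortex RNA of 7 Control and 5 EtOH mice was sequenced. The authors checked reads with FastQC (0.11.9), aligned them with STAR to GRCm39 with the Gencode Release 28 annotation, counted them with featureCounts and deposited expected counts per gene symbol without normalization, of which 61 symbols held values that were not whole. Columns were matched to mice by name, and counts were rounded. The authors used DESeq2.

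Genes passing filterByExpr (16059) were compared in edgeR 4.0.16 (R 4.3.3; TMM, quasi-likelihood test, Benjamini-Hochberg), with the study's thresholds for calls (adjusted p 0.05, log2 fold change 0.5 in size). DESeq2 1.42.0, limma voom 3.58.1, other factors and filters, a replicate block and fits without each mouse were alternatives. Halved counts, and Hmga1 and Hmga1b summed, were added after the counts had been seen. The members, gene lists and the rule for named genes (all members, E proteins, called list genes, the 3 genes most like each member; some genes that the rule selects are left out of the text) were chosen with earlier results of these data known. Fits were tested on simulated data. RPKM used exon lengths of Gencode M39 (GRCm39). Replicates within a group always differed by more than sampling noise. Whether mice shared litters or cages is not given here, so p-values measure the spread between these samples.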

Additional observations from a re-analysis of the deposited data

Results flagged for a closer look

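The total count of Control mouse 5, 40690226, stood apart from the other controls, whose next highest total was 32356909. The total of EtOH mouse 1, 42183031, stood apart from the other EtOH mice in the same way, the next highest being 33313165. Dixon's test at the 95% level marked both. It was run on 16 groups of values (the totals and the levels of each member in each group), where chance alone marks about 1 group in 20, that is 0.8 groups. No group of values of a member was marked. Without Control replicate 5 or EtOH replicate 1, Id4 stayed called lower in edgeR.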

How the results depend on the processing

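Each of the 6 members with a fit kept the direction of its log2 fold change under every alternative run. Leaving out 1 mouse at a time gave log2 fold changes of -0.58 to -0.49 for Id4, and Id4 missed the minimum of 0.5 in 2 of these 12 fits. With no fold minimum 1947 genes were called higher and 1863 lower, and with a minimum of 1 the numbers were 242 and 282. Without each mouse in turn, 576 to 783 genes were called higher and 586 to 727 lower. The Id2 to Id4 difference ranged from 0.26 to 0.42, and the level of Id3 over Hmga1 was 0.53 on the log2 scale with the longest transcript as length. Hmga1b, with 1.15 to 1.54 in the fits without 1 mouse, had no value with at least 10 counts in every mouse or with halved counts, where it was filtered out.

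The replicate numbers are numbers within each group, and deviations of mice with the same number were not alike (r of -0.10 to 0.03 over 5 numbers), so they pair nothing. With the replicate number as a block, the log2 fold changes by edgeR were -0.50 for Id4 (adjusted p = 0.00213), barely past the minimum, and 0.29 for Id3 (adjusted p = 0.125), and Id4 stayed called. Depth limits Hmga1b and Hmga2, with at most 36 and 10 counts per mouse.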
